A study of Mus musculus with 412 samples.

Results

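The netrin and Slit guidance receptors examined here were 8 genes, Dcc, Neo1, Unc5a, Unc5b, Unc5c, Robo1, Robo2 and Robo3. They were taken from the 45513 genes of the deposited expression table by gene symbol alone, through the Ensembl identifiers of the table and the GRCm38 annotation, and all 8 were found.

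Netrins and Slits are secreted cues that steer growing axons. DCC and its relative neogenin (Neo1) carry the attractive response to netrin, UNC5 receptors turn netrin into a repellent, and ROBO receptors carry the mostly repellent response to Slits. In dorsal root ganglion (DRG) neurons Slit and ROBO signalling is also known for its part in axon branching, and neogenin doubles as the receptor of the repulsive guidance molecules.

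The neurons came from healthy C57BL/6J mice whose colon wall had been injected with Fast Blue, a dye carried back along axons, 3 to 10 days earlier. Traced neurons were picked singly by glass pipette from separate cultures of DRG. Those from T10-L1 ganglia are called thoracolumbar (TL) and those from L5-S2 ganglia lumbosacral (LS), and the ganglia serve the lumbar splanchnic and pelvic nerves. The neurons were spread over 6 plates. The labels name 203 TL neurons, 196 LS neurons and 13 bath controls, of which 167 TL and 158 LS neurons were in the table analysed. No genotype or drug differed between the groups, mouse age was not given in the sources used here, and all neurons shared tracing surgery, dissociation and culture.

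Each sample was 1 neuron, and no animal or culture was named, so TL and LS counted as 1 sample each. No test between them was possible and no p-value is given. Differences were set instead against the spread between plates 2 to 6, each of which held 21 to 38 neurons of both segments, while plate 1 held 5 TL neurons only. Levels are in TPM, reads per gene length scaled to a sum of 1000000 in each neuron, a per-length unit in which genes can be compared with each other. Whole reads could be recovered from the table, at 416007 to 12058968 reads a neuron with a median of 2867071, and intervals on shares and reads are exact 95% intervals that cover counting error only, since the reads carried no molecular identifiers. The 10 sensory neuron markers each had a median of 10 TPM or more over the 325 neurons. Of 10 endothelial markers 8 had a median of 0, and the sum of the 10 satellite glia and Schwann cell markers ran from 0 to 99225 TPM with a median of 1994 TPM.

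The promoters of the members that separated neuron groups most clearly are shown first. RefSeq (GRCm38.p6) promoter entries were taken for 7 of the 8 members, and the Dcc promoter was not analysed here. Unc5b lies at chr10:60762593-60831581 on the minus strand, and its 250 bases before the start are chr10:60831582-60831831. Robo1 spans chr16:72308306-73046095 on the plus strand, and its entry, chr16:72662899-72663148, lies before an internal start inside the annotated gene. Both are given 5′ to 3′ on the gene's strand, with CG dinucleotides in capitals.
Unc5b: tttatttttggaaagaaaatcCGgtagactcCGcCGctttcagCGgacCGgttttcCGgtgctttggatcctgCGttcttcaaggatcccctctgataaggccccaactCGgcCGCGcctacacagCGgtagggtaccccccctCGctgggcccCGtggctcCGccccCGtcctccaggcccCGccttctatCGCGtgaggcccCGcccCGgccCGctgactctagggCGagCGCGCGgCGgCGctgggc
Robo1: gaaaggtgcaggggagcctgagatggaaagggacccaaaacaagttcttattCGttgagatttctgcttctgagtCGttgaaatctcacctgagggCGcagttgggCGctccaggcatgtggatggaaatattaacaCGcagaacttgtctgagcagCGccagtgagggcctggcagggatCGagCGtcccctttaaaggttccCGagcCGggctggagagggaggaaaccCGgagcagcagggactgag
The Unc5b stretch held 27 CG dinucleotides and the Robo1 stretch 11, against a median of 6 over the 32851 entries of the same length. The Unc5b stretch had more than 91.4% of all entries and the Robo1 stretch more than 64.4%. The GC box GGGCGG, searched on both strands, was in the Unc5b stretch and not in the Robo1 stretch, and was in 32.7% of all entries. The TATA box TATAAA was in neither, nor in any other entry of these 7 members, and was in 12.4% of all entries. Neo1 had the densest entry of the 7 members with 45 CG dinucleotides, and the 3 Robo2 entries had 4, 8 and 14.

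Robo2 was the leading receptor of the family in colonic sensory neurons, Neo1 and Unc5b came next, and Dcc and Robo3 were barely detected. Robo2 (chr16:73891839-74411825, minus strand), the main Slit receptor here, ran from 0 to 54.5 TPM with a median of 12.3 TPM and a mean of 12.7 TPM ± 8.79 (SD over 325 neurons). It was at 10 TPM or more in 207 of 325 neurons (63.7%, interval 58.2 to 68.9%) and had at least 1 read in 303. Robo2 was the highest of the 8 members in 247 of the 312 neurons with any of them, and it made up 54.2% of the family's summed TPM.

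Neo1 (chr9:58874687-59036441, minus strand) had a median of 4.44 TPM, a mean of 5.45 TPM ± 5.36 and a highest value of 58.4 TPM. It was at 1 TPM or more in 260 of 325 neurons (80.0%, interval 75.2 to 84.2%) and at 10 TPM or more in 45. Unc5b had a median of 0.958 TPM, a mean of 3.26 TPM ± 4.73 and a highest value of 24.6 TPM, so its neurons were split: 162 of 325 were at 1 TPM or more (49.8%, interval 44.3 to 55.4%), while 184 had any read. Robo2, Neo1 and Unc5b held the top 3 places by mean in each of the 10 combinations of plate and segment.

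The remaining members were low on average but not in the same way. Unc5c (chr3:141465216-141834924, plus strand) was low and widespread, with a read in 191 neurons, a mean of 0.738 TPM and a highest value of 5.14 TPM. Unc5a (chr13:54949411-55006018, plus strand) and Robo1 were sparse, with a wide range. Unc5a had a read in 58 neurons, was at 1 TPM or more in 37 and at 10 TPM or more in 5, and reached 21.1 TPM. Robo1 had a read in 65 neurons, was at 1 TPM or more in 36 and at 10 TPM or more in 6, and reached 14.7 TPM. Their means over all neurons, 0.636 TPM ± 2.22 for Unc5a and 0.588 TPM ± 1.99 for Robo1, were close to that of Unc5c, and the order of those 3 changed from plate to plate.

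Dcc (chr18:71253634-72351069, minus strand), the classical netrin receptor, had 273 reads in all (interval 242 to 307) over 35 of 325 neurons and never passed 3.13 TPM. Robo3 (chr9:37415669-37433246, minus strand), known from axons that cross the midline, had 16 reads (interval 9.15 to 26.0) in 4 neurons. No neuron held either at 10 TPM, which by the limit of 3 counts of the total allows a share of up to 0.923% (exact upper bound 1.13%). Of the 4168 exonic bases of Unc5a 34 are shared with the antisense gene Hk3, and of the 19135 of Unc5c 118 are shared with the antisense gene Gm15688. Counting by strand was not stated, so reads there cannot be told apart.

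**Figure D1:**
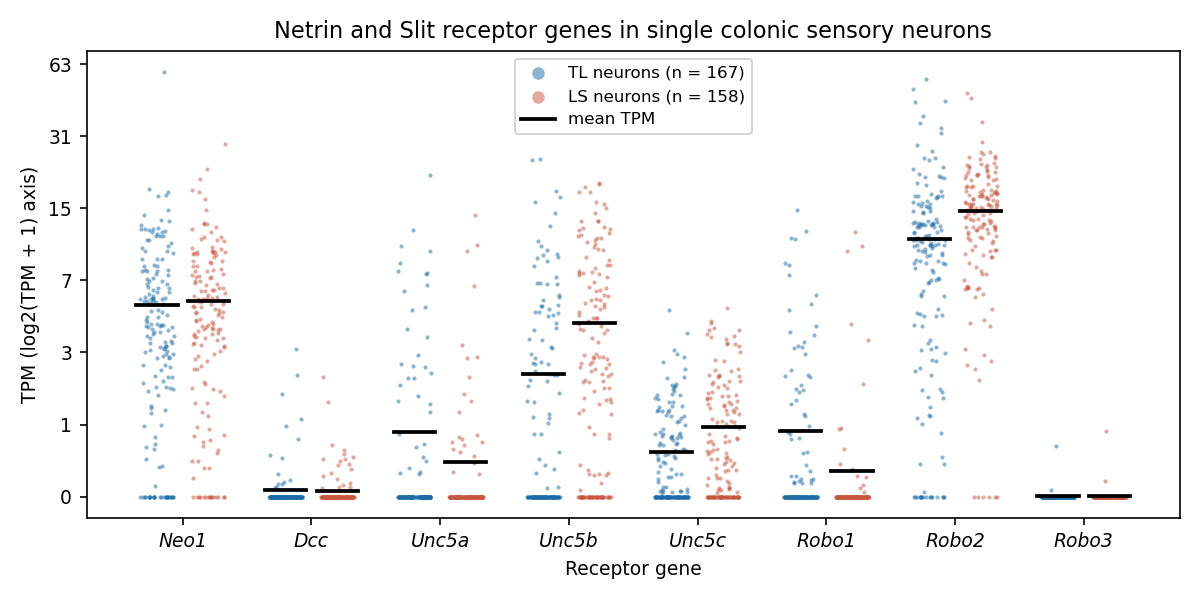
TPM of each receptor gene in single TL neurons (blue, n = 167) and LS neurons (red, n = 158), on a log2(TPM + 1) axis, with the mean TPM as a black bar. Robo2 fills nearly all neurons, Unc5b is split between neurons at 0 and neurons of up to 24.6 TPM, and Dcc and Robo3 lie almost wholly at 0.

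Most neurons held several receptors at once. At 1 TPM or more, 116 of 325 neurons held 3 members, 90 held 4, 65 held 2, 31 held 1, 18 held none and 5 held 5. Of the members, Unc5b and Unc5c went most with the number of genes detected in a neuron (Spearman's rho 0.45 and 0.44 over 325 neurons that share plates and depth), with 0.37 for Robo2 and 0.18 for Robo1.

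The first comparison asks how the splanchnic and pelvic populations differ. LS neurons held more Unc5b and Robo2 than TL neurons on every plate, and TL neurons held more Robo1 and Unc5a on 4 of 5. A gene was called higher in a group when its mean TPM was at least 2 times that of the other, in the same direction on every plate with at least 3 neurons of both. Genes whose mean stayed under 1 TPM in both groups were not judged. Only Neo1, Unc5b and Robo2 passed the filter on low means here, and 0 of 8 members were called, against 4.52% of 16184 genes called higher in LS and 3.47% called higher in TL.

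Unc5b ran from 0 to 19.5 TPM in LS neurons with a median of 2.57 TPM, and from 0 to 24.6 TPM in TL neurons with a median of 0. The ranges overlapped fully. Its mean was 4.32 TPM in LS and 2.26 TPM in TL, a log2 ratio of 0.94, with plate values of 0.12 to 1.52. It was at 1 TPM or more in 102 of 158 LS neurons (64.6%, interval 56.6 to 72.0%) and in 60 of 167 TL neurons (35.9%, interval 28.7 to 43.7%). After each neuron was thinned to 500000 reads, 41.9% of LS and 21.1% of TL neurons held at least 5 Unc5b reads. Without plate 3, or without plate 6, Unc5b was called higher in LS.

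Robo2 had a median of 14.8 TPM in LS (0 to 47.5 TPM) and of 10.3 TPM in TL (0 to 54.5 TPM). The means were 14.6 and 10.9 TPM, a log2 ratio of 0.41 with plate values of 0.08 to 1.05, and thus higher in LS on 5 of 5 plates by a modest margin. Unc5c, with means of 0.947 TPM in LS and 0.539 TPM in TL, was also higher in LS on 5 of 5 plates, under the filter of 1 TPM. The median sum of glial markers was 1426 TPM in LS and 2565 TPM in TL and the median depth 3202776 and 2709639 reads, and their part in these differences was not tested. Without the 26 neurons rich in other cell types the log2 ratio of Robo2 was 0.29 and that of Unc5b 0.87.

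Robo1 went the other way. It was at 1 TPM or more in 30 of 167 TL neurons (18.0%, interval 12.5 to 24.6%) and in 6 of 158 LS neurons (3.80%, interval 1.41 to 8.08%), with means of 0.875 and 0.285 TPM and a log2 ratio of LS over TL of -1.62. Plate 2 had the opposite direction, with 0.0510 TPM in TL and 0.266 TPM in LS, and without plate 2 Robo1 was called higher in TL. Unc5a had means of 0.862 TPM in TL and 0.398 TPM in LS and was higher in TL on 4 of 5 plates. Neo1 had means of 5.32 TPM in TL and 5.59 TPM in LS, a log2 ratio of 0.07 with plate values of -0.35 to 0.96, and the sign changed on the deposited scale and without plate 2.

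**Figure D2:**
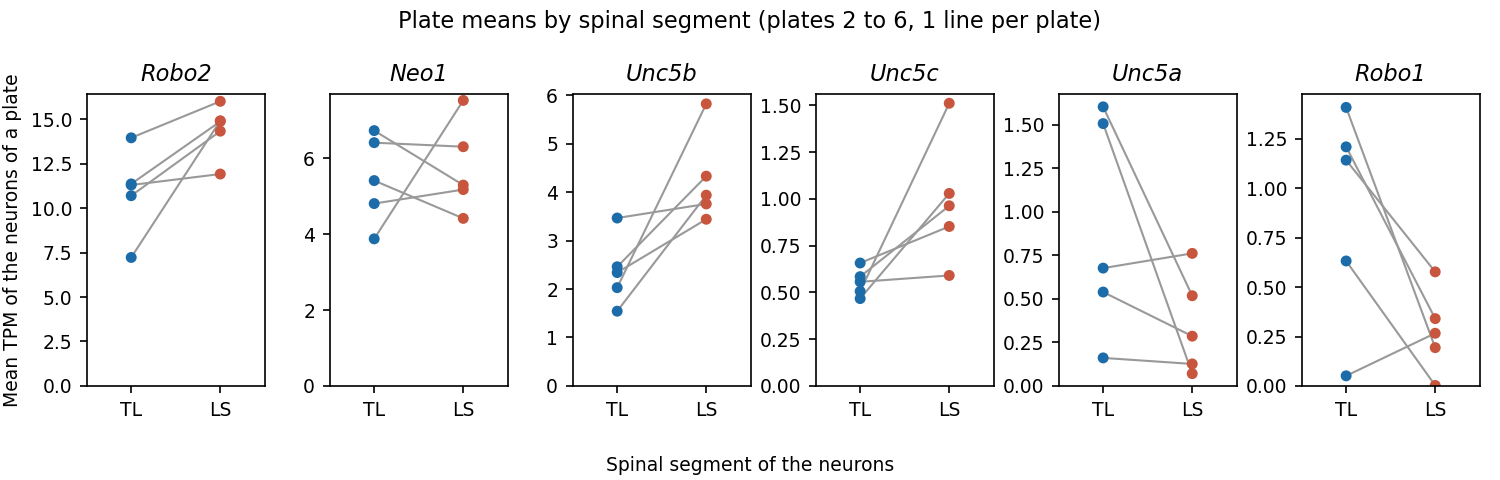
Mean TPM of the neurons of each plate in TL (blue) and LS (red) for 6 receptor genes, 1 line per plate for plates 2 to 6, each panel on its own axis from 0. All lines climb from TL to LS for Robo2, Unc5b and Unc5c, 4 of 5 fall for Unc5a and Robo1, and those of Neo1 go both ways.

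Other genes of the pathway were taken from 4 lists, and the call rule was the same. Of 9 ligands that passed the filter 0 were called higher in LS and 3 higher in TL: Ntn5, a netrin-family gene, with means of 2.18 TPM in TL and 0.190 TPM in LS, Ntng2, a membrane-anchored netrin-G, with 5.36 and 1.18 TPM, and Flrt2, a ligand of UNC5 receptors, with 1.402 and 0.661 TPM. The ligands' median log2 ratio of LS over TL was -0.94, against 0.05 over all genes tested. Of 7 further receptors and co-receptors none was called. Of 20 DCC and UNC5 partners 1 was called higher in TL, Myo10, a motor that carries DCC, and of 16 ROBO partners 1 was called higher in LS, Prrg4. Both counts are near the 3.47% and 4.52% of all genes called. Ntn5 and Flrt2 passed the filter only through TL, and Prrg4 only through LS.

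Levels of the ligands in the neurons themselves were uneven. Ntn1 had a mean of 0.114 TPM, Slit2 of 0.364 TPM and Slit3 of 0.215 TPM, while Slit1 had a mean of 9.25 TPM and was at 10 TPM or more in 110 of 325 neurons. Rgmb, a ligand of neogenin, had a mean of 135 TPM and was at 10 TPM or more in 321 neurons. Flrt3, which binds UNC5 and ROBO receptors, had a mean of 36.4 TPM, and Nell2, a ligand of ROBO receptors, a mean of 7.99 TPM.

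The next comparisons divide the neurons by 3 genes at 10 TPM or more: Gfra3, the artemin co-receptor of many peptidergic nociceptors, Piezo2, a mechanically gated channel, and Nrp1, a semaphorin receptor. Gfra3 reached 10 TPM in 183 neurons, Piezo2 in 145 and Nrp1 in 153. Few neurons lay near the threshold for Gfra3 (3 between 5 and 10 TPM and 3 between 10 and 20 TPM), more for Piezo2 (17 and 10) and most for Nrp1 (21 and 28). Only 18 TL and 7 LS neurons held both Gfra3 and Piezo2, so those splits divide the same neurons in nearly opposite ways and are not independent.

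Over all neurons, Robo1 was the 1 of 8 members called by Gfra3, with means of 0.130 TPM with Gfra3 and 1.18 TPM without, against 5.37% of 16204 genes called higher with Gfra3 and 5.26% higher without. Robo1 passed the filter on low means only through the neurons without Gfra3, and without plate 5, or without plate 6, that call ended. By Piezo2 0 of 8 members were called over all neurons, against 6.16% of 16155 genes higher with Piezo2 and 4.09% higher without. Robo1 had means of 1.23 TPM with Piezo2 and 0.0713 TPM without, with plate 2 the other way round.

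Among TL neurons, Unc5b belonged to the Gfra3 side and Robo1 to the Piezo2 side. In the 100 TL neurons with Gfra3, Unc5b had a mean of 3.46 TPM, and in the 67 without it 0.463 TPM, a ratio of 7.48. Robo1 had means of 0.185 TPM with Gfra3 and 1.90 TPM without, 10.3 times as much in the neurons without it. By the call rule Unc5b was higher with Gfra3 and Robo1 lower, 1 of 8 members in each direction, against 6.45% and 3.68% of 16080 genes. 5 of the 8 members passed the filter on low means. Unc5b passed only through the neurons with Gfra3, and Robo1 and Unc5a only through those without, each the side where it was higher.

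The shares showed the same separation. Unc5b was at 1 TPM or more in 55 of 100 TL neurons with Gfra3 (55.0%, interval 44.7 to 65.0%) and in 5 of 67 without (7.46%, interval 2.47 to 16.6%). Robo1 was at 1 TPM or more in 5 of 100 with Gfra3 (5.00%, interval 1.64 to 11.3%) and in 25 of 67 without (37.3%, interval 25.8 to 50.0%). Plate by plate, Unc5b had means of 2.35, 4.55, 3.00, 3.86 and 4.04 TPM with Gfra3 on plates 2 to 6, and of 0.172, 2.38, 0.148, 0 and 0 TPM without it. Robo1 was level on plate 2, with 0.0506 TPM with Gfra3 and 0.0517 TPM without, and apart on plate 5, with 0.0272 and 2.52 TPM.

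A single neuron carried most of the Unc5b signal of TL neurons without Gfra3. It lay on plate 3, held Piezo2 and no Gfra3, and had 24.6 TPM of Unc5b. Its 10 endothelial markers summed to 25566 TPM, the highest of all 325 neurons, beside 2603 TPM of sensory neuron markers, and Unc5b is also known from endothelium. Without it the other 66 TL neurons lacking Gfra3 had a mean of 0.0965 TPM, with none above 2.04 TPM. Without plate 3 the log2 ratio of Unc5b moved from 2.90 to 5.28. The call for Unc5b ended on the deposited scale, at a log2 ratio of 2.75, and the call for Robo1 ended on that scale, on CPM, under a cell filter and in means of log2 values, with a lower mean in Gfra3 neurons in each.

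The Piezo2 split gave the mirror image in TL. Robo1 had a mean of 1.91 TPM in 73 TL neurons with Piezo2 and of 0.0695 TPM in 94 without, a ratio of 27.5 and a higher mean on 5 of 5 plates. Unc5b had means of 0.845 and 3.35 TPM, 3.97 times as much without Piezo2, likewise on 5 of 5 plates. Both were called, 1 of 8 members in each direction, against 5.90% of 16079 genes higher with Piezo2 and 5.03% higher without. Each passed the filter on low means only through the side where it was higher. Robo1 was at 1 TPM or more in 28 of 73 neurons with Piezo2 (38.4%, interval 27.2 to 50.5%) and in 2 of 94 without (2.13%, interval 0.259 to 7.48%). Robo2 was also higher with Piezo2 on 5 of 5 plates, at 13.4 against 9.01 TPM, below the fold of 2. Without the neuron rich in endothelial markers the other 72 TL neurons with Piezo2 had 0.515 TPM of Unc5b.

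Among LS neurons Unc5b was present on both sides of each split. It had means of 4.05 TPM with Gfra3 and 4.62 TPM without, and of 4.68 TPM with Piezo2 and 4.02 TPM without. No member was called in LS by Gfra3, against 4.68% of 16363 genes higher with it and 5.62% higher without, nor by Piezo2, against 5.38% and 3.59% of 16334 genes. Robo1 in LS was 0.0642 TPM with Gfra3 and 0.530 TPM without, on the same side as in TL on 4 of 5 plates, and under the filter of 1 TPM.

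**Figure D3:**
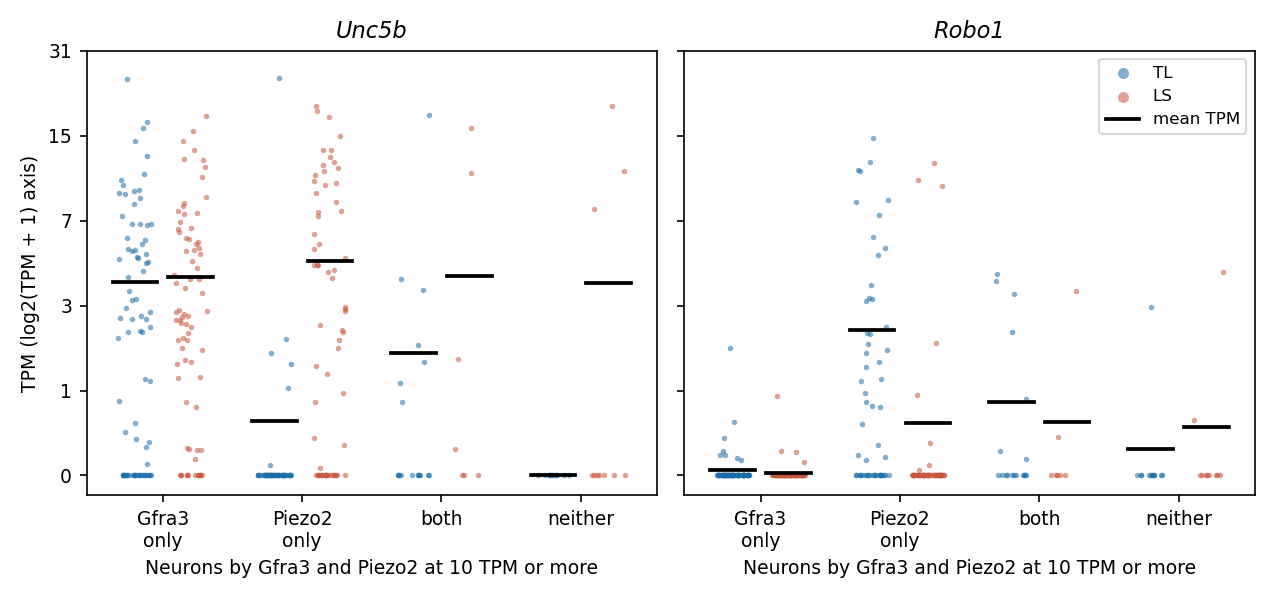
TPM of Unc5b and Robo1 in single TL (blue) and LS (red) neurons, on a log2(TPM + 1) axis, by whether Gfra3 and Piezo2 were at 10 TPM or more, with the mean TPM as a black bar. Unc5b is spread over Gfra3 neurons of both segments and over Piezo2 neurons of LS but lies at 0 in most Piezo2 neurons of TL, where Robo1 is highest.

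Piezo2 neurons of the 2 segments differed in their mean levels of Unc5b and Robo1. In this comparison, added after these values were seen, Unc5b had a mean of 4.68 TPM in 72 LS neurons with Piezo2 and 0.845 TPM in 73 TL neurons with Piezo2, a log2 ratio of 2.47 with the higher mean in LS on 5 of 5 plates. Robo1 had means of 0.538 TPM in LS and 1.91 TPM in TL, a log2 ratio of -1.83 with the higher mean in TL on 5 of 5 plates. Both were called, 1 of 8 in each direction, against 5.39% of 16170 genes higher in LS and 4.10% higher in TL, and each passed the filter on low means only through the segment where it was higher. Without the TL neuron rich in endothelial markers the TL mean of Unc5b was 0.515 TPM, and without all neurons rich in other cell types its log2 ratio was 3.14. Unc5c was also higher in LS on 5 of 5 plates, at 1.11 against 0.663 TPM, and Unc5a higher in TL on 4 of 5, at 1.28 against 0.574 TPM. The Robo1 call ended under the cell filter, in means of log2 values, with a pseudocount of 1 and at a threshold of 5. The Unc5b call ended on the deposited scale. Of Piezo2 neurons without Gfra3, 41 of 55 in TL and 12 of 65 in LS held Nrp1. Mean Robo1 was 2.90 TPM in TL and 2.63 TPM in LS in those with Nrp1, and 0.404 and 0.0625 TPM in those without. The part of Nrp1 in the Robo1 difference was not tested.

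Gfra3 neurons gave no such call between the segments. Unc5b had means of 4.05 TPM in 83 LS and 3.46 TPM in 100 TL neurons with Gfra3, higher in LS on 3 of 5 plates. Robo2 was higher in LS on 5 of 5 plates, at 14.0 against 10.04 TPM. None of the 8 members was called, against 2.87% of 16262 genes higher in LS and 3.17% higher in TL. The median sum of glial markers in these neurons was 109 TPM in LS and 2696 TPM in TL, and its part in these values was not tested.

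Nrp1 divided the family along other lines. Over all neurons Robo1 was the 1 of 8 members called, with means of 1.16 TPM in 153 neurons with Nrp1 and 0.0759 TPM in 172 without, a ratio of 15.3 and a higher mean on 5 of 5 plates, which without plate 6 was no longer called, against 2.67% of 16095 genes called higher with Nrp1 and 3.11% higher without. It passed the filter on low means only through the neurons with Nrp1. Between the segments 0 of 8 members were called within Nrp1 neurons, against 1.02% of 16038 genes higher in LS and 2.49% higher in TL, and Robo1 there had means of 1.09 TPM in LS and 1.19 TPM in TL. Of the 30 TL neurons with Robo1 at 1 TPM or more, 27 held Nrp1 and 28 held Piezo2, and of the 6 such LS neurons 5 held Nrp1 and 5 held Piezo2. Robo1 at 1 TPM or more was thus mostly found where Nrp1 and Piezo2 met. It was at that level in 22 of 41 TL neurons with Piezo2 and Nrp1 but no Gfra3 (53.7%, interval 37.4 to 69.3%), and in 2 of 14 without Nrp1 (14.3%, interval 1.78 to 42.8%). In LS the same classes held it at that level in 3 of 12 neurons (25.0%, interval 5.49 to 57.2%) and in 1 of 53 (1.89%, interval 0.0478 to 10.1%). Any Robo1 read was present in 25 of the 41 and 8 of the 14 TL neurons, and in 3 of the 12 and 5 of the 53 LS neurons. In TL these classes thus differed in the level of Robo1 more than in its detection.

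Over all neurons of each segment, Unc5b followed Nrp1 in opposite directions in TL and LS. In TL it had means of 2.81 TPM in 116 neurons with Nrp1 and 1.00 TPM in 51 without, higher with Nrp1 on 5 of 5 plates. In LS it had means of 2.88 TPM in 37 neurons with Nrp1 and 4.77 TPM in 121 without, higher without Nrp1 on 5 of 5 plates, the least on plate 6 with 3.35 and 3.47 TPM. In TL 3 of 8 members, Unc5a, Unc5b and Robo1, were called higher with Nrp1, against 4.77% of 16098 genes, and 0 were called lower, against 0.975%. In LS 1 of 8 was called, Unc5c, lower with Nrp1 at 0.369 against 1.12 TPM, against 4.58% of 16272 genes, and 0 were called higher, against 1.60%. Unc5a and Robo1 passed the filter in TL only through the neurons with Nrp1, and Unc5c in LS only through those without. The TL call for Unc5a ended under the cell filter, at split thresholds of 5 and 20, and without plate 3 or plate 6. In TL neurons with Piezo2 and no Gfra3, Unc5a was at 1 TPM or more in 11 of 41 with Nrp1 and in 7 of 14 without. With Gfra3 and no Piezo2 it was at that level in 5 of 52 with Nrp1 and in 0 of 30 without. Median genes detected in TL were 13773 with Nrp1 and 11968 without, and that gap's part in the TL calls was not tested.

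Dividing by Nrp1 within the Gfra3 and Piezo2 classes located Unc5b more closely. In TL neurons with Gfra3 and no Piezo2, Unc5b was at 1 TPM or more in 38 of 52 with Nrp1 (73.1%, interval 59.0 to 84.4%) and in 11 of 30 without (36.7%, interval 19.9 to 56.1%). The matching LS shares were 13 of 19 (68.4%, interval 43.4 to 87.4%) and 43 of 57 (75.4%, interval 62.2 to 85.9%). Mean Unc5b in these classes was 5.08 TPM with Nrp1 and 1.71 TPM without in TL, and 4.51 and 3.89 TPM in LS. The 30 TL neurons without Nrp1 had a median of 11420.5 genes detected, against 13885.5 in the 52 with Nrp1 and 13576 in the matching 57 LS neurons, and the part of that gap in the share was not tested. In neurons with Piezo2 and no Gfra3, Unc5b was at 1 TPM or more in 5 of 41 TL neurons with Nrp1 and in 0 of 14 without, and in LS in 1 of 12 with Nrp1 and in 39 of 53 without (73.6%, interval 59.7 to 84.7%). Piezo2 neurons with Nrp1 thus had little Unc5b and some Robo1 in both segments, and those without Nrp1 had Unc5b in LS and not in TL. The 0 of 14 has an upper interval bound of 23.2%.

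**Figure D4:**
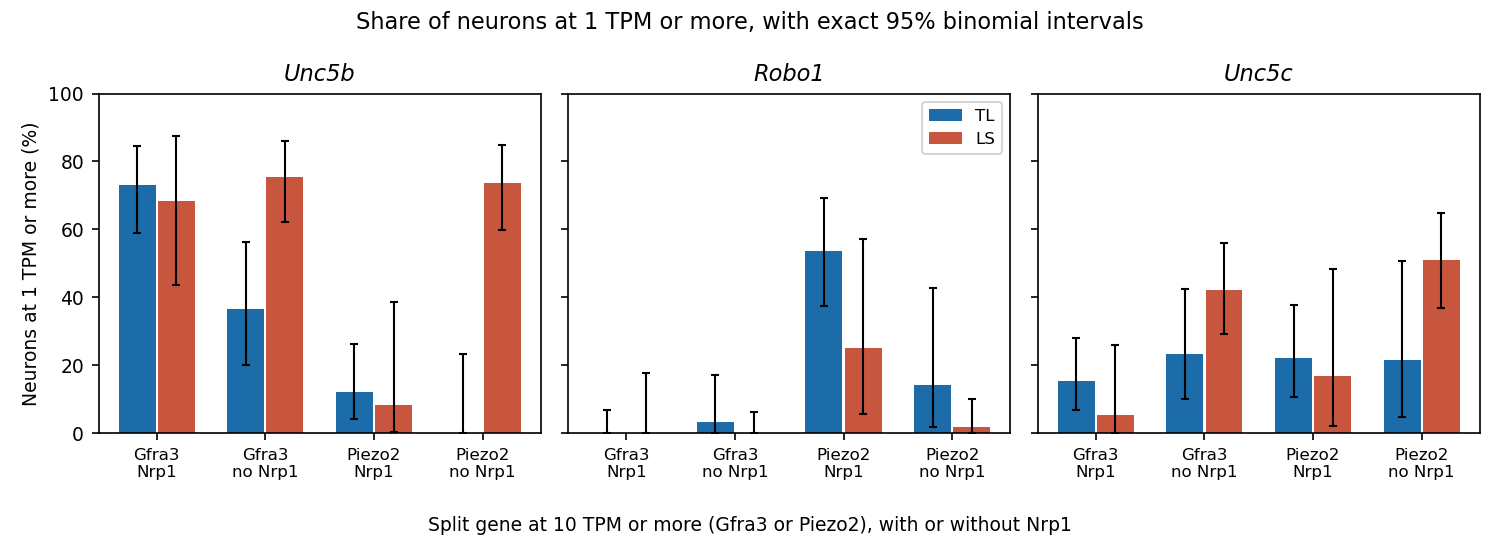
Share of neurons at 1 TPM or more of Unc5b, Robo1 and Unc5c in TL (blue) and LS (red), by Gfra3 only or Piezo2 only at 10 TPM or more and by Nrp1, with the share as a bar and its exact 95% binomial interval as a whisker. Without Nrp1, Unc5b is at that level in 0 of 14 TL and 39 of 53 LS Piezo2 neurons, and in 11 of 30 TL and 43 of 57 LS Gfra3 neurons. With Nrp1 its TL and LS shares lie closer. The intervals cover counting error over neurons only and are no test between the segments, each of which is 1 sample. The TL Gfra3 neurons without Nrp1 also had fewer genes detected, with a median of 11420.5.

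The 22 neurons under 10 TPM for both Gfra3 and Piezo2 were low in Robo2 in TL and ranged widely in LS. Robo2 had a median of 0.184 TPM and a highest value of 5.92 TPM in the 12 TL neurons of this kind. In the 10 LS neurons it had a median of 3.02 TPM and a highest value of 18.0 TPM, with 9 at 1 TPM or more and 3 at 10 TPM or more. They also had the fewest genes, with medians of 9199.5 in TL and 9569.5 in LS, and the part of that in their Robo2 level was not tested.

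Several pathway genes were called in the TL splits. Of 9 ligands that passed the filter in TL, 5 were called higher with Piezo2 and 1 lower: Ntng1 had means of 4.56 and 0.173 TPM with and without Piezo2, Ntng2 10.8 and 1.11 TPM, Slit1 19.4 and 4.66 TPM, Flrt3 47.6 and 13.3 TPM and Flrt2 1.96 and 0.969 TPM, while Flrt1 had 2.10 and 8.04 TPM. The median log2 ratio of the 9 ligands was 1.02, against 0.04 over all genes tested. Of all genes tested 5.90% were called higher with Piezo2 and 5.03% lower. Of 9 further receptors 2 were called higher with Piezo2, Dscam and Dscaml1, and 1 lower, Unc5d, the remaining UNC5 receptor, with 0.629 and 6.81 TPM. Unc5d was thus on the Gfra3 side with Unc5b, at 6.77 TPM with Gfra3 and 0.130 TPM without in TL. Unlike Unc5b it stayed there in LS, at 3.80 TPM with Gfra3 and 0.422 TPM without. In both segments Unc5d passed the filter by Gfra3 only through the neurons with Gfra3. Of 8 further receptors in TL and 6 in LS, 2 each were called higher with Gfra3, against 6.45% and 4.68% of all genes. By Piezo2 in TL, Ntng1, Flrt2, Dscam and Dscaml1 passed the filter only through the neurons with Piezo2, and Unc5d only through those without.

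Partners inside the cell were also counted. Of 20 DCC and UNC5 partners in TL 1 was called higher with Piezo2, Trim9, a ubiquitin ligase that binds DCC, at 15.8 against 7.45 TPM, and 1 lower, Dock1, at 0.974 against 3.15 TPM. Dock1 passed the filter on low means only through the neurons without Piezo2. Of 15 ROBO partners none was called higher and 1 lower, Nck2. These counts are near the 5.90% and 5.03% of all genes called. Between the Piezo2 neurons of LS and TL, 1 of 9 ligands was called higher in LS, Slit2, at 1.48 against 0.0793 TPM, and 4 higher in TL, among them Slit1 at 19.4 against 5.56 TPM. Over all genes 5.39% were called higher in LS and 4.10% higher in TL, and Slit2 passed the filter only through LS. Slit1 is a ligand and Robo1 a receptor of the same pathway, and both had the higher mean in Piezo2 neurons of TL. Slit2 had the higher mean in those of LS. So did Robo2 in neurons with Piezo2 and no Gfra3, at 16.4 TPM in LS and 14.7 TPM in TL. A link between these levels was not tested.

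Pairs of receptors in the same neuron were counted at 1 TPM or more, a threshold added after the data were seen, since at 10 TPM only 9 of the 28 pairs occurred in any neuron. Unc5b and Robo1 met less often than the product of their shares gives, in 4 of 167 TL neurons against 10.8 and in 1 of 158 LS neurons against 3.87. On the plates of TL, 4 of 5 lay below the product and none above. Unc5a and Robo1 met more often, in 14 TL neurons against 4.67 and in 3 LS neurons against 0.418, above the product on 4 of 5 TL plates. Unc5a and Unc5c never met in TL, 0 neurons against 5.60, and met in 4 LS neurons against 4.11.

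Robo2 was so widespread that its pairs followed the shares. Unc5b never appeared without Robo2: all 60 TL and all 102 LS neurons with Unc5b at 1 TPM or more also held Robo2 at that level, against 52.5 and 98.1 neurons from the product. Neo1 and Robo2 met in 125 TL neurons against 114.5 and in 128 LS neurons against 124.1. Unc5b and Unc5c, both receptors of the repulsive netrin response, met in 49 LS neurons against 38.1 and in 16 TL neurons against 12.9. These pairs share depth and plates, so the counts are a description.

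**Figure D5:**
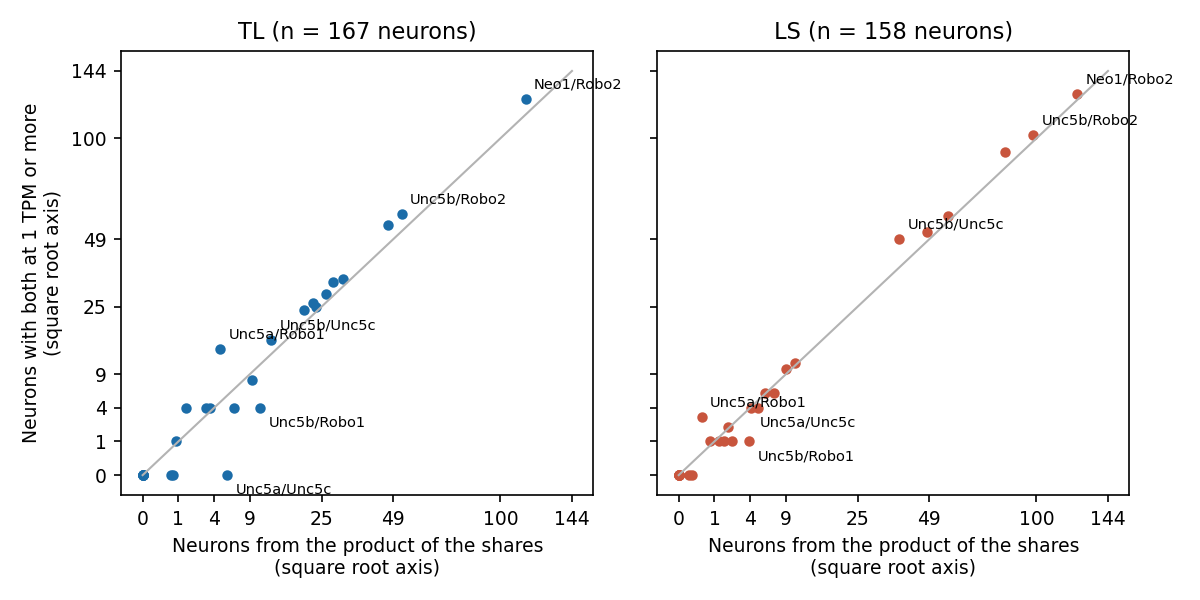
Number of neurons holding both members of a pair at 1 TPM or more against the number given by the product of their shares, on square root axes, for all 28 pairs in TL (left) and LS (right), with the line of equality in grey. Unc5a with Robo1 lies above the line in both segments and Unc5b with Robo1 below it.

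The genes whose levels ran most like a member's were ranked by Spearman's rho over 325 neurons, with plate means removed, among 10283 genes at 10 TPM or more in at least 10% of neurons. Neo1, Unc5b and Robo2 were the members that reached that level. Those most like Unc5b were Ptchd1 (rho 0.67), Ass1 (0.67), a urea cycle enzyme, and Chrnb4 (0.66), a nicotinic receptor subunit. Those most like Robo2 were Syt1 (0.64), a synaptic vesicle calcium sensor, Oxr1 (0.61) and Nfe2l1 (0.58). Those most like Neo1 were lower, Arvcf, Sirpa and Slc39a6, each at 0.41. Each of these 9 genes itself had a rho of 0.31 to 0.44 with the number of genes detected.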

How the data were processed

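Colonic sensory neurons were profiled by Smart-seq2, which copies polyadenylated RNA at full length, and sequenced as 6 pooled libraries. Per the submitters' processing notes bcl2fastq 2.15.0.4, STAR 2.4.1, featureCounts 1.4.4 and GRCm38.p3 were used. The authors filtered low-quality cells, normalised by gene length and deposited log2(value + 1) for 45513 genes in 325 neurons. All of its columns were mapped to labelled neurons, and 0 columns of per-sample values went unused.

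Here each value was taken back to the linear scale and rescaled to 1000000 per neuron (TPM). With lengths from the GENCODE M21 annotation 65.0% of values above 0 were multiples of 1 read to a relative precision of 1e-06, and the remaining lengths were found from the values, so whole reads were recovered for every gene. Depth was 416007 to 12058968 reads a neuron. No count test was run, since TL and LS are 1 sample each.

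The call rule was a fold of 2 in mean TPM in the same direction on every plate, with a mean of at least 1 TPM in either arm. It was run on simulated data with known changes. Those changes were set only in genes with higher means than any member called here, so that run does not cover sparse members. Genes named were the 8 members, the 3 split genes, pathway genes past the call rule or among the ligands and UNC5 receptors, and the 3 genes most like each widespread member. The members and lists were chosen with earlier results of these data known. Alternatives were other scales, averages, thresholds, a cell filter that left 269 neurons, and leaving out each plate. Python 3.11.15, numpy 2.4.6, pandas 2.3.3, scipy 1.17.1 and matplotlib 3.10.9 were used. Ntn3 was not analysed here.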

Additional observations from a re-analysis of the deposited data

Results flagged for a closer look

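Taken over all neurons of each segment, Unc5b moved in opposite directions with Nrp1 in TL and LS. Its log2 ratio of neurons with Nrp1 over those without was 1.48 within TL and -0.73 within LS, and on each of 5 plates the TL mean was higher with Nrp1 and the LS mean lower. In neurons with Gfra3 and no Piezo2 the mean was higher with Nrp1 in both segments. It was 5.08 against 1.71 TPM in TL and 4.51 against 3.89 TPM in LS, where the medians were 2.57 and 2.75 TPM. In LS neurons with Piezo2 and no Gfra3 the means were 0.238 TPM with Nrp1 and 5.77 TPM without. The difference between the segments was not tested, since each segment is 1 sample.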

How the results depend on the processing

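Of 922 log2 ratios recomputed under an alternative 33 moved by more than the spread between plates. In 40 the sign changed, all of them ratios of members not called, whose reported size was at most 0.30 and whose size under the alternative was at most 0.53. Of 206 counts of members called 166 stayed within 1.5 times of the reported count. Leaving out each plate in turn gave 0 to 1 members called between LS and TL, 0 to 2 by Gfra3, 0 to 2 by Piezo2 and 0 to 2 by Nrp1 over all neurons, 1 to 2 by Nrp1 within LS, and 0 to 1 between LS and TL within Nrp1 neurons. By Gfra3 over all neurons the count went from 1 to 0 under the cell filter, in means of log2 values, with a pseudocount of 1 and without the 26 neurons rich in other cell types, while the log2 ratio of Robo1 was -3.18 as reported, -3.10 under the cell filter and -3.16 without those 26 neurons. By Piezo2 over all neurons it went from 0 to 1 on CPM, with no minimum mean and at a threshold of 5. By Nrp1 over all neurons it went from 1 to 2 on CPM, on the deposited scale and with no minimum mean, and to 0 under the cell filter and in means of log2 values. By Gfra3 within TL it went from 2 to 1 on CPM, under the cell filter and in means of log2 values, and to 0 on the deposited scale. By Piezo2 within TL it went from 2 to 1 in means of log2 values. By Nrp1 within TL it went from 3 to 0 in means of log2 values and with a pseudocount of 1, and to 1 at a threshold of 20. By Nrp1 within LS it went from 1 to 0 in means of log2 values and with a pseudocount of 1. Between LS and TL within Piezo2 neurons it went from 2 to 1 on the deposited scale, under the cell filter, in means of log2 values, with a pseudocount of 1 and at a threshold of 5. Members at 10 TPM or more in at least 10% of neurons numbered 3, against 1 at a threshold of 20 and 6 at a threshold of 1. Pairs held by any neuron numbered 9, against 1 at 20, 19 at 1 and 15 at 5 reads after thinning. The cause of these changes was not tested. No paired analysis was possible because no result comes from a test and no label pairs TL with LS neurons. Depth limits the low members most: Robo3 had 16 reads and Dcc 273 over all neurons.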
